A study of Mus musculus with 10 samples.

Results

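The combination of SHP099 and SX682 (Combo) was set against SX682 alone in single cells of mouse lung tumours, to ask what inhibition of the phosphatase SHP2 adds when the chemokine receptors CXCR1 and CXCR2 are already blocked. The cells were chosen by the treatment recorded for each hashtag: 12594 cells of 3 Combo mice and 10777 cells of 3 SX682 mice, which together are 23371 of the 44986 cells of the single-cell experiment. KP cells, a transplantable mouse lung tumour line, had been given intravenously to syngeneic mice, so that all groups share tumours grown from 1 injected line. Combo mice received SHP099 and SX682, SX682 mice received SX682 only, and both lasted 11 days. The other 2 groups, SHP099 alone and Vehicle, have 3 mice each and serve here to estimate the spread and to give the effect of SHP099 without SX682. The labels name no strain, sex or age of the mice.

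SHP2, the product of Ptpn11, carries signals from growth factor and cytokine receptors to RAS and the kinase ERK, and it is also recruited by inhibitory receptors of T cells and myeloid cells such as PD-1. ERK induces its own brakes, among them the phosphatase Dusp6 and the Sprouty proteins, so that the RNA of these genes follows pathway activity in many cells. CXCR1 and CXCR2 are receptors on neutrophils for the chemokines Cxcl1, Cxcl2, Cxcl3 and Cxcl5, which tumour cells and myeloid cells release and which draw neutrophils into tissue. SHP099 is an allosteric inhibitor of SHP2, and SX682 is an allosteric inhibitor of both receptors.

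Live cells of dissociated tumour nodules were captured as 1 pool per treatment, with a hashtag for each mouse, and sequenced as 5′ libraries. Because each treatment is 1 capture, treatment and capture cannot be told apart in any value below, and the p-values measure the spread between hashtagged mice of 1 capture. The Combo mice had 2934 to 5421 cells with a median of 1532 to 1632.5 unique molecular identifiers (UMIs, counts of captured RNA molecules), against 2858 to 4131 cells with a median of 2501.5 to 2731.5 UMIs in the SX682 mice. Combo and SX682 pools shared 149 barcodes, 1.183% of the Combo cells and 1.383% of the SX682 cells. SX682 mouse 3 stood apart in make-up, with 179 neutrophils against 686 and 849 in the other SX682 mice, and with 4 endothelial-like and 7 fibroblast-like cells. UMIs were summed per mouse in each of the authors' 33 clusters, in their 9 T cell states and over all neutrophils and all T cells. A cluster entered the fit when at least 2 Combo mice and 2 SX682 mice had 10 or more cells, which 30 clusters met; the SHP099 and Vehicle mice entered where they had as many. The clusters carry numbers only, so names such as "NK cell-like" rest on marker genes. Levels are given as CPM (UMIs of a gene per 1000000 UMIs of the same cells of a mouse, scaled between mice by TMM), and differences as log2 of Combo over SX682 with a standard error (SE). A gene is said to have changed where edgeR's quasi-likelihood test gave a Benjamini-Hochberg adjusted p below 0.05 over the genes tested in that cluster. Genes named for their fold in a cluster were taken only from changed genes whose Combo and SX682 levels did not overlap. For them the lack of overlap reported below was a condition of choice and gives no further support. The share of all tested genes without overlap was not counted, so a lack of overlap gives no further support for genes taken from lists either. By chance 3 against 3 mice are apart with a probability of 0.1, and 3 against 2 mice more often.

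Over the 30 clusters 5140 of 129913 gene tests were called, which is 3.96%, with 3308 higher and 1832 lower in Combo cells. The calls fell on 2233 distinct genes, of which 1429 changed in 1 cluster and 114 changed in both directions in different clusters. The count was 2743 without Combo mouse 2, 3328 without Combo mouse 3 and 3221 without SX682 mouse 2. Alveolar macrophage-like cells (cluster 26), macrophage-like cells rich in Gpnmb and Trem2 (cluster 25) and fibroblast-like cells (cluster 20) had the highest percentages of called genes among the clusters described below.

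**Figure D1:**
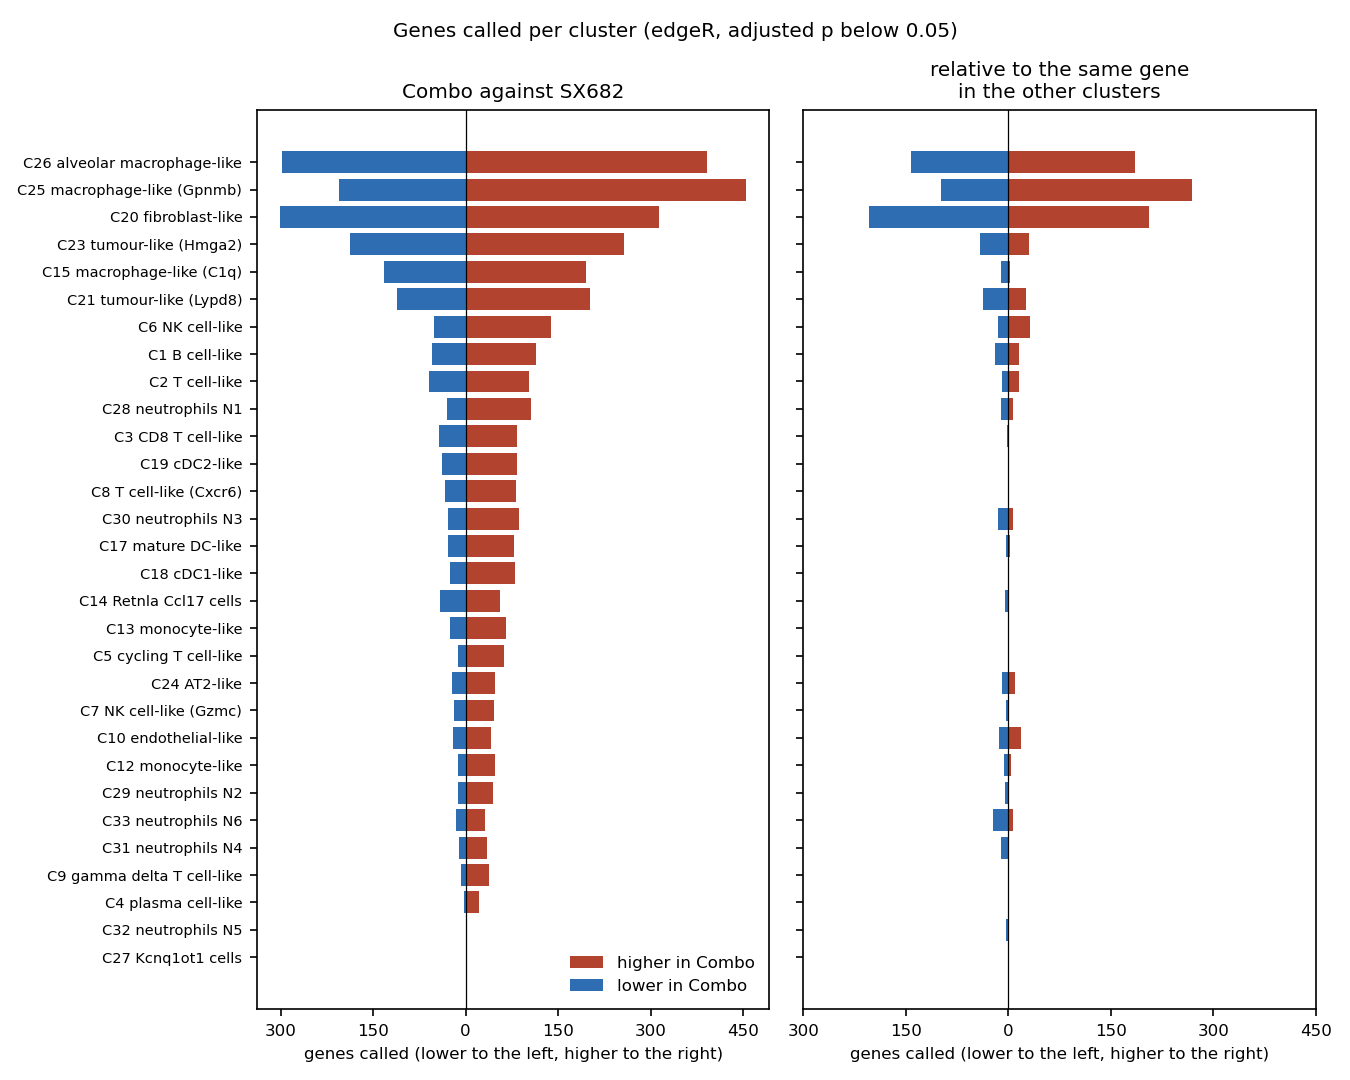
Number of genes called higher and lower in Combo than in SX682 mice in each fitted cluster, sorted by the number of calls, at an edgeR adjusted p below 0.05. The left panel gives the direct comparison and the right panel the difference relative to the same gene in the other clusters, described below. Alveolar macrophage-like and Gpnmb macrophage-like cells are at the top with 689 and 661 genes.

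A first layer of the difference was shared by nearly all cell types. Rpl41, a small protein of the large ribosomal subunit, was higher in Combo in 28 of 30 clusters with a median log2 difference of 0.95. Rps27, a protein of the small subunit, was higher in 28 of 29 clusters with a median of 0.92, and Ndufa3, a small subunit of respiratory complex I, was higher in 26 of 29 with a median of 1.09. In the other direction Eef1a1, which delivers tRNAs to the ribosome, was lower in 18 of 30 clusters with a median of -0.40, and the ribosomal stalk protein Rplp0 was lower in 15 of 29 with a median of -0.36. The 128 genes that were higher in at least 5 clusters had a median transcript length of 593.5 bases. Of them 103 were under 1000 bases, while 24.952% of the 5202 genes measured in 10 or more clusters were that short. The 49 genes lower in at least 5 clusters had a median of 1009 bases, with 23 under 1000 bases. Over the 5202 genes, length and median difference had a Spearman correlation of 0.152. The percentage above 0 was 64.3% under 500 bases, 30.1% from 1000 to 1500 bases and 65.2% over 4000 bases. Without SX682, 113 of the 128 had a median above 0 in SHP099 against Vehicle, and 46 of the 49 lower genes had one below 0. Rpl41 had 0.74 and Eef1a1 -0.43 there. The share of all genes above 0 in SHP099 against Vehicle was not counted, so the 113 and the 46 have no background to be read against. Over the 5202 genes the median in SHP099 against Vehicle was 0.16 under 500 bases, -0.004 from 500 to 700 and -0.13 from 700 to 1000. It was -0.14 from 1000 to 1500 bases and 0.17 over 4000. SHP099-treated pools were the shallower ones in both pairs, and the part of capture, depth and drug in this layer was not tested.

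The promoters of Rpl41 and Rps27 are shown because these genes were called in nearly all clusters. They come from the RefSeq promoters of GRCm38.p6, which run from 250 bases before the start of the transcript to 50 after it and are written 5′ to 3′ on the strand of the gene. The Rpl41 promoter lies at chr10:128549119-128549418 on the minus strand and that of Rps27 at chr3:90213599-90213898 on the minus strand. Capitals mark the letters of a motif, here 1 match of Rps27 to GGAANTCC, the core that NF-kB proteins bind, which 4.84% of the 27025 promoters hold when both strands are read. The Rpl41 window held no match to it, nor to GAAANNGAA, TGANTCA or TTCNNNGAA.
Rpl41: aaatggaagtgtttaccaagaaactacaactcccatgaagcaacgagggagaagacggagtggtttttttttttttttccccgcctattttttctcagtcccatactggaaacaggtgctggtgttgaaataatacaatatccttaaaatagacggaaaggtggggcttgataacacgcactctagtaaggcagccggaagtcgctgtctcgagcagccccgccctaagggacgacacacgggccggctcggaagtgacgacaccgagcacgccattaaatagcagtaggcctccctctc
Rps27: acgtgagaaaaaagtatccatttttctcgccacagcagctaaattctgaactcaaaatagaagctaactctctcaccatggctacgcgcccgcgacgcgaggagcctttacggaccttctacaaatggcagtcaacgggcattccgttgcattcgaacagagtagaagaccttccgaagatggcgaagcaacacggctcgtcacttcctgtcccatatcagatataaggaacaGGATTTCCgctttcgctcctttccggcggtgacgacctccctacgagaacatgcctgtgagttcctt

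To see what a cell type did beyond this shared layer, each difference was also taken relative to the median difference of the same gene over the other clusters, a reading chosen after the data had been seen. Relative to the other clusters, 1528 of the 129913 tests were called, 1.18%, with 836 higher and 692 lower. The other clusters are all remaining fitted clusters for a single cluster, and those outside clusters 28 to 33 for all neutrophils. For T cell states and all T cells they are the clusters with few cells of the authors' T cell table. A gene tested in fewer than 10 of these other clusters has no such median and keeps its own difference. Values so obtained are called relative below.

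**Figure D2:**
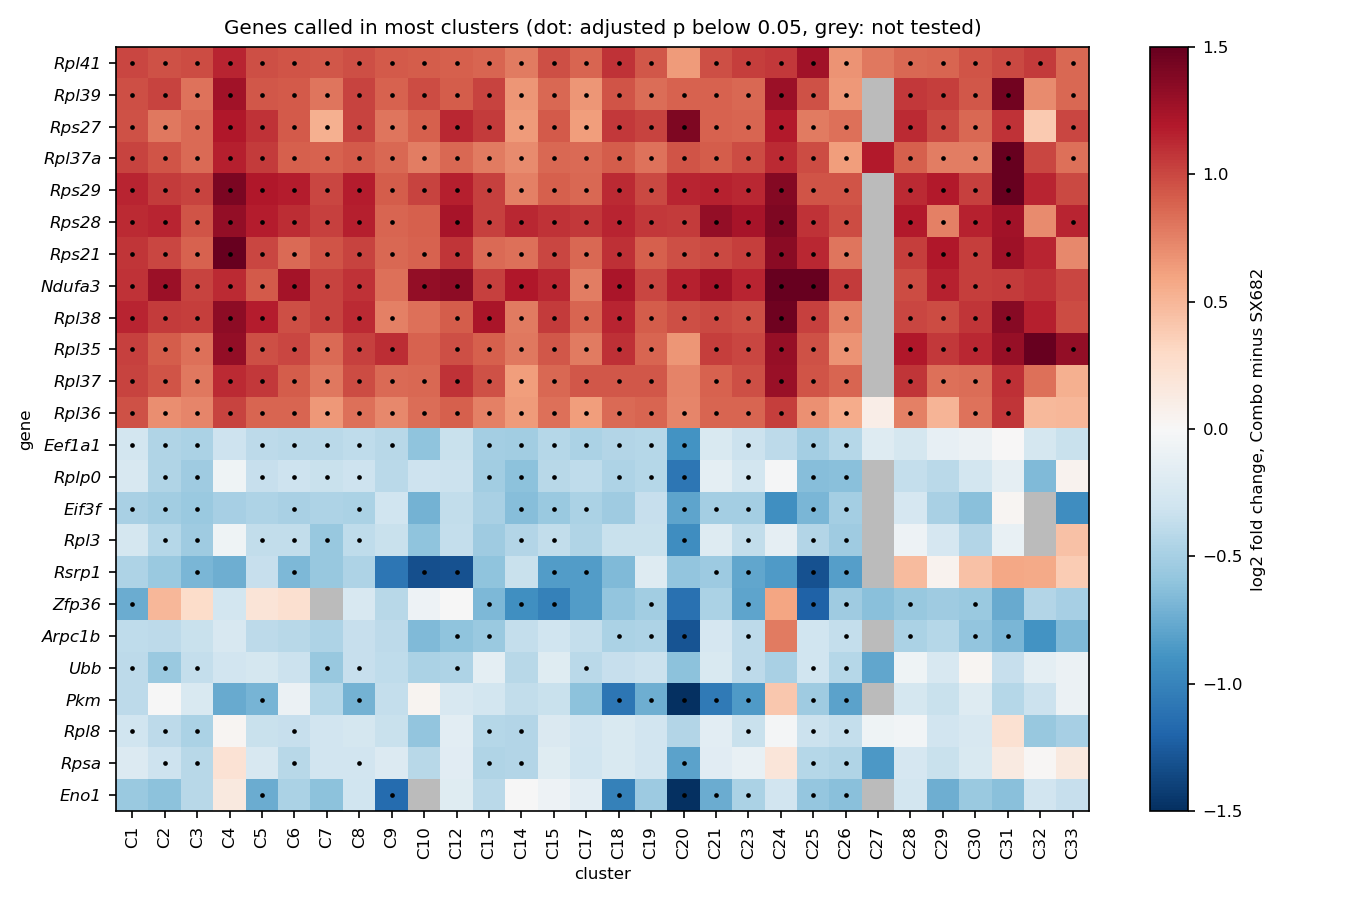
Log2 difference of Combo over SX682 per cluster (colour scale; dots mark called tests, grey marks clusters that did not test the gene) for the 24 genes called in most clusters, 12 in each direction. Rpl41, Rps27 and Ndufa3 lie above 0 in every cluster that tested them, and Eef1a1 lies below 0 in all but 1.

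Ptpn11, the gene of SHP2, was tested in 17 clusters and called in 0 of them by edgeR's quasi-likelihood test and in 0 by DESeq2, with 1 cluster at an unadjusted p under 0.05 and a median log2 difference of 0.01. In alveolar macrophage-like cells Ptpn11 had 25.2, 31.3 and 20.6 CPM in Combo mice, against 22.1, 21.3 and 35.5 CPM in SX682 mice, and the groups overlapped. Dusp6, the ERK-induced phosphatase, was tested in 12 clusters, below 0 in 11 of them and called lower in 4, which were the endothelial-like, C1q macrophage-like, fibroblast-like and alveolar macrophage-like cells. DESeq2 called 1 of the 12, and none of the 4 edgeR calls remained relative to the other clusters. Single mice decided several of these calls: in C1q macrophage-like cells Dusp6 was -1.15 ± 0.27 and not called without Combo mouse 2 or 3 or SX682 mouse 1 or 2 (adjusted p 0.0595 to 0.123), and in fibroblast-like cells -1.76 ± 0.48 and not called without Combo mouse 1, 2 or 3 or SX682 mouse 2 (adjusted p 0.0753 to 0.207). Spry2, another ERK-induced brake, was tested in 4 clusters and called in 0 by edgeR or DESeq2, with 2 at an unadjusted p under 0.05, and its log2 difference was above 0 in all 4, at 0.36 to 1.40 with a median of 0.74. In fibroblast-like cells 5 of the 16 tested genes of an ERK feedback and output list were lower (Dusp4, Dusp6, Etv4, Etv5 and Ier3), while in the 2 tumour-like clusters Dusp6 was not called, at -0.24 ± 0.16 in cluster 21 and -0.46 ± 0.20 in cluster 23 (log2 ± SE).

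Among the chemokine genes of the CXCR1/2 axis, Cxcl5 stood higher in both tumour-like clusters, as given below. It was tested in 3 clusters, and in the third its log2 difference was -4.05 and not called. Cxcl2 had 29496, 26383 and 20746 CPM in all neutrophils of Combo mice, against 28236, 28345 and 22619 CPM in SX682 mice. These levels overlapped, and the log2 difference was -0.05 ± 0.13 (edgeR adjusted p = 0.909). Over clusters Cxcl2 was called higher in 5 of 29, but in only 1 of them did its level reach 5% of the highest CPM of any cluster, the level under which RNA released from other cells could give the value and which is called the free RNA rule here. Cxcr2 in all neutrophils had 223, 189 and 174 CPM in Combo mice, against 225, 182 and 190 CPM in SX682 mice, with a log2 difference of -0.03 ± 0.14. Cxcr1 was higher by edgeR in 2 of the 3 clusters that tested it, both macrophage-like, while DESeq2 called 1 of the 3.

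Alveolar macrophage-like cells expressed all 8 alveolar macrophage markers used (Chil3, Ear1, Ear2, Mrc1, Krt79, Fabp1, Car4 and Plet1) at least 1 log2 unit above the other clusters, and had 258 to 686 cells per Combo mouse and 151 to 389 per SX682 mouse. In them 391 genes were higher and 298 lower in Combo, 8.97% of the 7681 tested. Without Combo mouse 2 the count was 368, and without SX682 mouse 2 it was 390. Cxcr1 itself rose in these cells (chr1:74191785-74194631 in GRCm38.p6). Cxcr1 had 145, 138 and 105 CPM in Combo mice, against 20.2, 26.9 and 14.2 CPM in SX682 mice. Every Combo mouse lay above every SX682 mouse, and the log2 difference was 2.56 ± 0.20 (edgeR adjusted p = 1.04e-07). Cxcr2, the neighbouring receptor gene, showed 0.11 ± 0.40 in the same cells and its groups overlapped.

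Fabp4, Ch25h, Ear6 and Fstl1 rose as well. Fabp4, a fatty acid carrier, had 1438, 1612 and 1382 CPM in alveolar macrophage-like cells of Combo mice, against 703, 457 and 421 CPM in those of SX682 mice, a log2 difference of 1.48 ± 0.15 (edgeR adjusted p = 1.48e-06). Ch25h, which makes 25-hydroxycholesterol, had 90.1, 80.1 and 82.5 CPM in Combo mice, against 25.9, 23.8 and 14.2 CPM in SX682 mice, a difference of 1.89 ± 0.17. Neither gene overlapped between groups, and the 3 Combo mice lay close together. Ear6, an eosinophil-type ribonuclease, was 2.45 ± 0.24 higher and Fstl1, a secreted follistatin-like protein, 2.44 ± 0.43 higher. All of these calls held without each mouse in turn.

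Cathepsins, the proteases of the lysosome, were higher in 6 of the 12 tested members of their list in alveolar macrophage-like cells (Ctsd, Ctsk, Ctsl, Ctss, Cstb and Lgmn) and lower in none, with a list median of 0.34 against -0.01 over all tested genes. Ctsl had 428, 501 and 600 CPM in Combo mice, against 329, 300 and 412 CPM in SX682 mice, a log2 difference of 0.57 ± 0.12. Idi1 and Fdps, enzymes of cholesterol synthesis, were 1.14 ± 0.28 and 0.88 ± 0.27 higher in these cells. The calls of both were lost in the absence of single mice: that of Idi1 without Combo mouse 2, SX682 mouse 2 or SX682 mouse 3 (adjusted p 0.0528 to 0.13), and that of Fdps without any mouse but Combo mouse 1 (0.0602 to 0.195).

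Genes of antigen presentation by MHC class II fell in alveolar macrophage-like cells: 5 of 7 tested members were lower (H2-Aa, H2-Ab1, Cd74, H2-DMa and H2-DMb1) and none higher. H2-DMb1, a chain of the peptide editor H2-DM, had 56.9, 51.7 and 53.6 CPM in Combo mice, against 94.1, 144 and 162 CPM in SX682 mice, and the groups did not overlap. Its log2 difference was -1.28 ± 0.20 (edgeR adjusted p = 0.000222), and relative to the other clusters H2-DMa and H2-DMb1 kept their calls. H2-Aa, H2-Ab1 and Cd74 were under the free RNA rule in these cells. Siglece, an inhibitory sialic acid receptor, had 25.2, 26.6 and 28.9 CPM in Combo mice, against 53.8, 75.1 and 101 CPM in SX682 mice, a log2 difference of -1.47 ± 0.28. Fcgr1, the high-affinity IgG receptor, fell to 23.4 ± 1.43 CPM in Combo mice, against 47.5 ± 5.56 CPM in SX682 mice (SD, n = 3 each). Dusp6 had 8.61, 9.48 and 8.25 CPM in Combo mice, against 21.1, 19.4 and 24.9 CPM in SX682 mice, a log2 difference of -1.23 ± 0.34 (edgeR adjusted p = 0.0231). The call of Dusp6 was lost without any mouse but Combo mouse 3 (adjusted p 0.0558 to 0.0739), although the levels did not overlap.

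Of the 13 mitochondrially encoded genes, 11 were lower in alveolar macrophage-like cells of Combo mice and none higher, with a list median of -0.62, and 12 were lower relative to the other clusters. Relative to the other clusters 327 genes were called in these cells, 4.26%, with 185 higher and 142 lower. Neutrophil markers moved with the group: their summed level was 1130 to 1765 CPM in Combo mice, against 260 to 689 CPM in SX682 mice, with S100a8 and S100a9 called higher among 8 tested. The airway marker Scgb1a1 was also higher, and its list spanned 66 to 2280 CPM in Combo mice, against 80 to 94 CPM in SX682 mice. Their part in the results of this cluster was not tested.

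**Figure D3:**
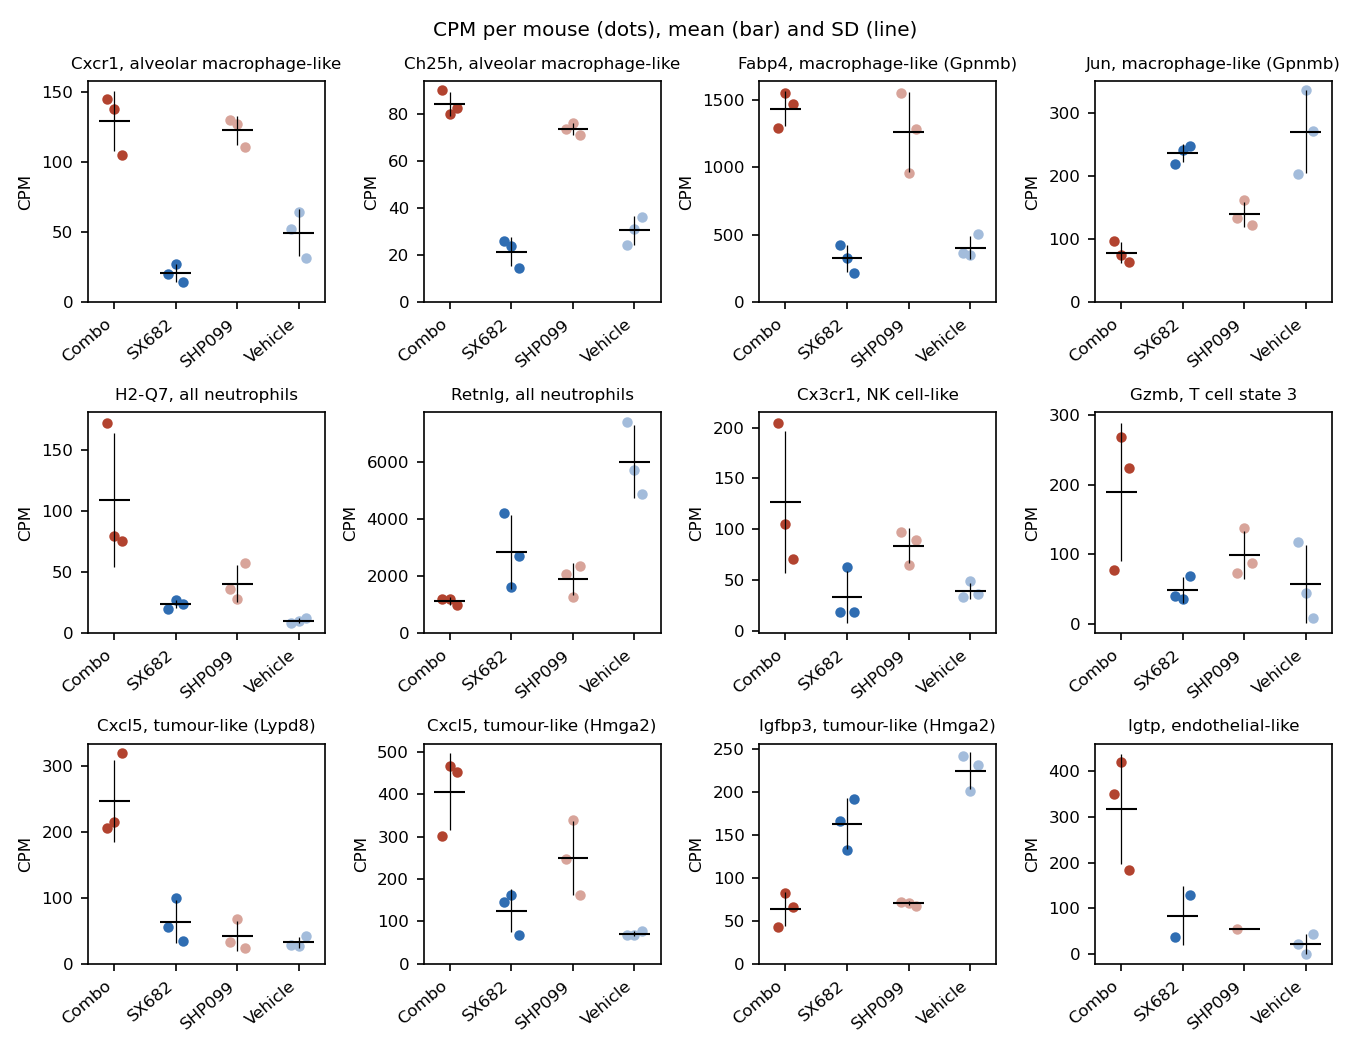
CPM of 12 genes in single clusters, 1 dot per mouse, bar at the mean and line for the SD, with Combo to the left of SX682 and SHP099 to the left of Vehicle. The Combo dots of Cxcr1 in alveolar macrophage-like cells lie between 105 and 145 CPM, above the SX682 dots at 14.2 to 26.9 CPM.

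Macrophage-like cells of cluster 25, led by Gpnmb and Trem2, had 134 to 269 cells per Combo mouse and 194 to 284 per SX682 mouse. In cluster 25, 455 genes were higher and 206 lower in Combo, 7.75% of 8530. The count was 369 without Combo mouse 2, 418 without Combo mouse 3 and 370 without SX682 mouse 2. Relative to the other clusters 366 genes were called, 4.29%, with 268 higher and 98 lower. Fabp4 rose in these cells too, with 1291, 1553 and 1468 CPM in Combo mice, against 422, 329 and 217 CPM in SX682 mice. Each Combo level was over 3 times each SX682 level, and the log2 difference was 2.15 ± 0.21 (edgeR adjusted p = 3.27e-06).

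Igf1, a growth factor that macrophages secrete, had 485, 402 and 460 CPM in cluster 25 of Combo mice, against 187, 187 and 151 CPM in SX682 mice, a difference of 1.35 ± 0.15. Mgll, the lipase that splits monoacylglycerols, was 1.5 ± 0.26 higher. Spp1, the matrix protein osteopontin, had 5808, 8954 and 7675 CPM in Combo mice, against 3237, 2864 and 2227 CPM in SX682 mice, and remained called relative to the other clusters at 1.13. None of these 3 genes overlapped between the groups. Cxcr1 rose here as well, to 18.7, 23.1 and 23 CPM in Combo mice, against 8.16, 5.80 and 2.97 CPM in SX682 mice, a difference of 1.91 ± 0.41. The acute phase protein gene Orm1 was 2.31 ± 0.41 higher and the cathepsin Ctsl 1.13 ± 0.24 higher.

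Immediate early genes, which respond to ERK and stress kinases within minutes, fell together in cluster 25: 13 of 18 tested were lower and none higher, with a list median of -0.90 against -0.04 over all tested genes. Jun had 96.2, 74.5 and 64.2 CPM in Combo mice, against 220, 242 and 247 CPM in SX682 mice, a log2 difference of -1.61 ± 0.18 (edgeR adjusted p = 1.24e-05). Fos, its partner in the AP-1 factor, had 244, 252 and 147 CPM in Combo mice, against 433, 495 and 704 CPM in SX682 mice, a difference of -1.34 ± 0.21. Both genes were separated between the groups in every mouse. Fos, Fosb, Jun, Egr1 and Dusp1 kept their calls relative to the other clusters. That of Fosb, at -1.46 ± 0.38, was lost without Combo mouse 1, Combo mouse 3 or SX682 mouse 3 (adjusted p 0.0771 to 0.122). Heat shock genes, which tissue dissociation also induces, were lower in 4 of 12 and higher in 1 in the same cells.

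Cholesterol and fatty acid synthesis genes rose in cluster 25 in 4 of the 18 tested (Hmgcs1, Msmo1, Mvd and Fasn), and all 4 kept the call relative to the other clusters. Hmgcs1, the enzyme at the head of the mevalonate pathway, had 50.7, 58.0 and 50.7 CPM in Combo mice, against 26.5, 25.9 and 29.1 CPM in SX682 mice, a difference of 0.98 ± 0.20. Nuclear-encoded oxidative phosphorylation genes were higher in 9 of 18, of which 5 were called relative to the other clusters (Ndufa4, Cox4i1, Cox5a, Cox6c and Atp5g1). Mitochondrially encoded genes were lower in 7 of 13 and higher in 1. Marker sums differed as well: neutrophil markers had 1044 to 2355 CPM in Combo mice, against 258 to 835 CPM in SX682 mice, alveolar macrophage markers 1628 to 1846 CPM, against 736 to 1102 CPM, and general macrophage markers 12389 to 16416 CPM, against 18351 to 24422 CPM. Whether these sums bear on the gene differences was not tested.

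Macrophage-like cells of cluster 15, high in C1qa, C1qb and C1qc, had fewer changes, with 195 genes higher and 133 lower, 3.71% of 8850. Counts without 1 mouse were 193 for Combo mouse 1, 143 for Combo mouse 2, 198 for SX682 mouse 1 and 214 for SX682 mouse 2. Of these tests 14 were called relative to the other clusters, 0.158%. Cd72, an inhibitory receptor with ITIM motifs, had 36.2, 25.6 and 41.5 CPM in Combo mice, against 129, 97.5 and 106 CPM in SX682 mice, and was called at -1.71 ± 0.22 (edgeR adjusted p = 0.000187). Cd83, an activation marker, had 113, 81.4 and 66.4 CPM in Combo mice, against 195, 229 and 250 CPM in SX682 mice, and was called at -1.38 ± 0.16, or -1.25 relative to the other clusters. The groups did not overlap for either gene.

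Igf1 rose in cluster 15 as in cluster 25, to 185, 118 and 184 CPM in Combo mice, against 82.4, 55.8 and 85.6 CPM in SX682 mice, a log2 difference of 1.12 ± 0.19. The metallothionein Mt2 was 1.41 ± 0.23 higher and Fos 0.90 lower (-0.90 ± 0.13). MHC class II genes were lower in 6 of 10 in cluster 15, with H2-Aa at 5398, 4902 and 4849 CPM in Combo mice, against 7960, 7851 and 8470 CPM in SX682 mice. None of the 10 was called relative to the other clusters. General macrophage markers were lower in 6 of 9 as well, at 10890 to 14092 CPM in sum in Combo mice, against 17613 to 22128 CPM in SX682 mice. Neutrophil markers summed to 2953 to 5034 CPM in Combo mice, against 1064 to 3169 CPM in SX682 mice, with S100a8 called higher. The part of either sum in the other differences was not tested.

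**Figure D4:**
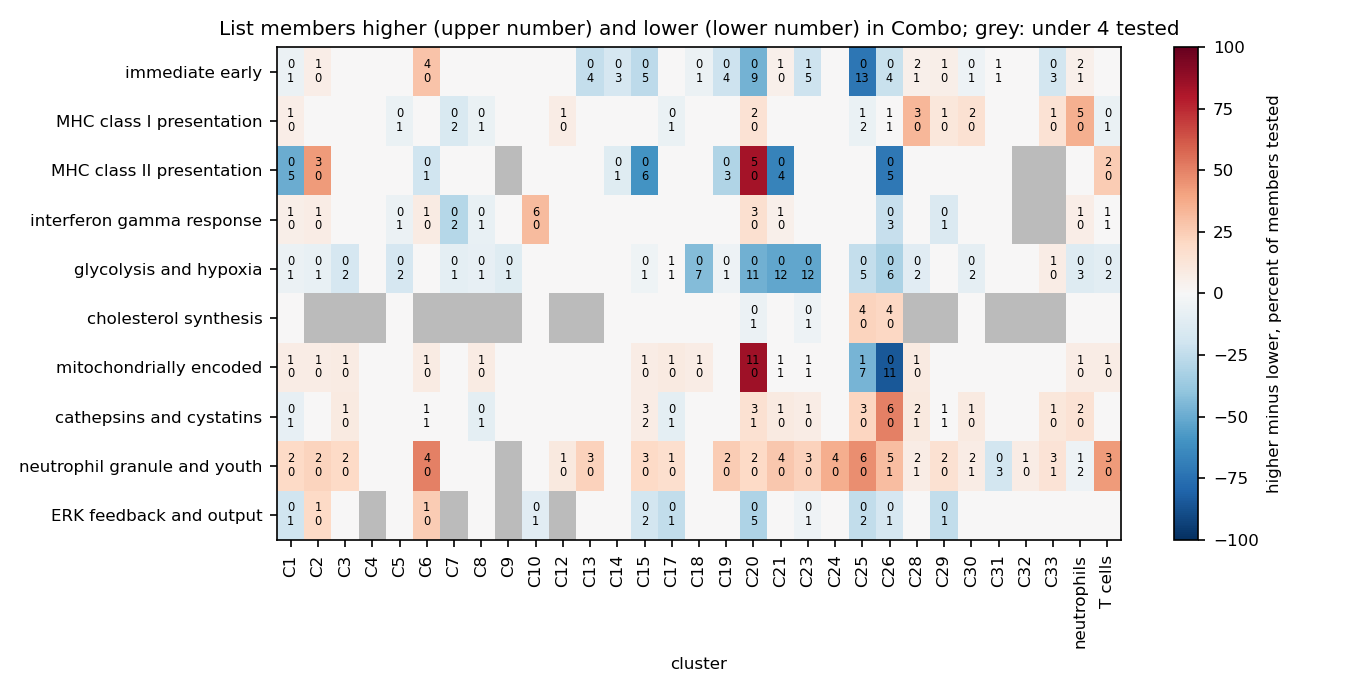
Gene lists by cluster, with the number of tested members called higher in Combo above the number called lower, and colour for the percent higher minus the percent lower. Immediate early genes are lower in cluster 25 (13 of 18), MHC class II genes are lower in clusters 26, 15 and 1 and higher in cluster 20, and glycolysis genes are lower in tumour-like and fibroblast-like clusters.

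In monocyte-like cluster 12, 48 genes were higher and 12 lower, 2.31% of 2593, and 11 were called relative to the other clusters, 0.424%. In cluster 14, led by Retnla and Ccl17 and left unnamed, 56 were higher and 42 lower, 2.65% of 3696, with 5 called relative to the other clusters, 0.135%. The dendritic cell-like clusters had 78 higher and 28 lower in cluster 17 (3.04% of 3488), 80 and 25 in cluster 18 (2.09% of 5030), and 83 and 39 in cluster 19 (2.19% of 5570). Relative to the other clusters these 3 had 6 (0.172%), 0 and 1 (0.018%), and in cluster 18, where edgeR gave the 0, DESeq2 was not run on that reading.

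Ccl4, a chemokine that draws T cells and monocytes, rose in cluster 12 to 224, 103 and 128 CPM in Combo mice, against 5.99, 34.5 and 0 CPM in SX682 mice, a log2 difference of 2.81 ± 0.51 (edgeR adjusted p = 0.00199). The direct call held without each mouse in turn. Relative to the other clusters Ccl4 was called too (edgeR adjusted p = 0.0395), but that call was lost in 4 of the 6 fits without 1 mouse. The level was 1.52% of that in the highest cluster, under the free RNA rule. Cd209a, a lectin of inflammatory dendritic cells and monocytes, had 14, 14 and 19.7 CPM in monocyte-like cluster 12 of Combo mice, against 150, 93.2 and 412 CPM in SX682 mice, and its call was lost without Combo mouse 2 (adjusted p = 0.102). In cluster 14 the antiviral membrane protein Ifitm3 had 421, 488 and 142 CPM in Combo mice, against 1114, 1125 and 1036 CPM in SX682 mice, a log2 difference of -1.62 ± 0.27. Among the dendritic cell-like clusters, in mature cluster 17 the selenoprotein gene Selenom was 2.14 ± 0.38 higher, at 78.5, 78.0 and 122 CPM in Combo mice, against 25.3, 20.1 and 17 CPM in SX682 mice. The Combo and SX682 mice did not overlap for any of these genes. Aldoa, a glycolytic aldolase, had 221, 201 and 285 CPM in conventional dendritic cell-like cluster 18 of Combo mice, against 376, 576 and 572 CPM in SX682 mice, a log2 difference of -1.14 ± 0.19 that was called without each mouse in turn but not relative to the other clusters. Pltp, a phospholipid carrier, had a log2 difference of -2.06 ± 0.43 in conventional dendritic cell-like cluster 19, a call lost without Combo mouse 2 (adjusted p = 0.103).

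All neutrophils of the authors' neutrophil table, 910 to 1373 per Combo mouse and 179 to 849 per SX682 mouse, had 202 genes higher and 76 lower in Combo, 3.72% of 7477. The count was 157 without Combo mouse 1, 115 without Combo mouse 2, 140 without Combo mouse 3, 119 without SX682 mouse 1 and 184 without SX682 mouse 3. All neutrophils are a sum over 6 states, and the shares of 2 of them among neutrophils were called (clusters 32 and 33). A change of mixture and a change per cell cannot be told apart in the differences of all neutrophils. MHC class I genes rose: 5 of 14 tested were higher (H2-K1, B2m, Tap1, H2-Q6 and H2-Q7) and none lower. H2-Q7, a class Ib molecule, had 173, 79.1 and 75.0 CPM in Combo mice, against 19.9, 27.1 and 23.7 CPM in SX682 mice, a log2 difference of 2.17 ± 0.33 (edgeR adjusted p = 0.000405). Combo mouse 1 was highest and all 3 Combo mice lay above the SX682 mice. H2-Q6 moved alike at 2.23 ± 0.32, but it is nearly identical in sequence to H2-Q7, and how reads were shared between them is not given. The classical class I gene H2-K1 was 0.62 ± 0.14 higher, a call lost without Combo mouse 1 (adjusted p = 0.0909) or SX682 mouse 1 (0.083).

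Cxcr4, the receptor for Cxcl12 that marks aged neutrophils and those resident in tissue, had 469, 532 and 583 CPM in neutrophils of Combo mice, against 267, 327 and 268 CPM in SX682 mice, a log2 difference of 0.86 ± 0.13. Csf1, the macrophage growth factor, had 265, 284 and 245 CPM in Combo mice, against 154, 200 and 108 CPM in SX682 mice, a difference of 0.70 ± 0.15, lost without Combo mouse 2 or SX682 mouse 1 (adjusted p = 0.061 in each). The 2 groups were apart for both genes. Cxcr1 was 1.83 ± 0.41 higher, at 20.7, 18.2 and 23.9 CPM in Combo mice, against 4.18, 6.61 and 6.77 CPM in SX682 mice, and lost its call without Combo mouse 3, SX682 mouse 1 or SX682 mouse 2 (adjusted p 0.0528 to 0.0911).

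Retnlg and Hp fell. Retnlg, a resistin-like protein of freshly released neutrophils, had 1190, 1185 and 970 CPM in Combo mice, against 4203, 1595 and 2710 CPM in SX682 mice, a log2 difference of -1.35 ± 0.26 (edgeR adjusted p = 0.00416). SX682 mice differed widely among themselves, and the lowest of them was above the highest Combo mouse. Haptoglobin, Hp, was -0.87 ± 0.19, with 543 CPM in Combo mouse 2 beside 545 CPM in SX682 mouse 2, and was lost without Combo mouse 1, Combo mouse 3, SX682 mouse 1 or SX682 mouse 3 (adjusted p 0.0545 to 0.0767). Of 20 genes of granules and neutrophil youth, 2 were lower and 1 higher in the direct comparison, and 6 were lower relative to the other clusters (Retnlg, Mmp9, Lcn2, S100a8, S100a9 and Il1r2). That reading subtracts the median difference of the other clusters, and of these 6 only Retnlg was called in the direct comparison of all neutrophils. S100a8 had 20401, 24869 and 18581 CPM in Combo mice, against 19197, 12121 and 25101 CPM in SX682 mice, a direct log2 difference of 0.18 ± 0.18, and it was called higher, by 0.46 to 1.13, in 5 of the 6 neutrophil clusters fitted singly. In the 22 other clusters where S100a8 was tested it was under the free RNA rule in every one, with a median difference of 1.38 and 9 calls higher. Il1r2 was at 0.000787 and Mmp9 at -0.09 in the direct comparison, beside medians of 0.96 and 1.04 over the other clusters. In neutrophils 76 genes were called relative to the other clusters, 1.02%, with 39 higher and 37 lower. The macrophage genes C1qb and Apoe were lower in neutrophils, with a macrophage marker sum of 383 to 428 CPM in Combo mice, against 617 to 744 CPM in SX682 mice, and the NK gene Gzma was higher.

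The 6 neutrophil states, which are clusters 28 to 33 of the whole table, summed to 403 called genes, 2.65% of 15210 tests, and to 207 without Combo mouse 2, 261 without SX682 mouse 1 and 248 without SX682 mouse 2. State 3 had 114, 2.4% of 4756, and 52 without Combo mouse 2, 58 without SX682 mouse 1 and 55 without SX682 mouse 2. H2-Q7 in state 3 had 227, 108 and 87.7 CPM in Combo mice, against 5.38, 32.9 and 18.4 CPM in SX682 mice. Lcn2, an iron-scavenging granule protein, had 153, 116 and 186 CPM in state 3 of Combo mice, against 446, 369 and 258 CPM in SX682 mice, a log2 difference of -1.31 ± 0.23. Both were apart between groups, though Lcn2 was close to the free RNA level at 5.08% of the highest cluster. Cxcr4 was 1.29 ± 0.17 higher in state 1.

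Trf, the iron carrier transferrin, fell in neutrophil state 4 to 99.4, 84.2 and 84.6 CPM in Combo mice, against 359, 414 and 365 CPM in SX682 mice, a log2 difference of -2.06 ± 0.25. State 6 had higher Basp1, a membrane-bound signalling protein, at 1000, 1062 and 853 CPM in Combo mice, against 267, 330 and 576 CPM in SX682 mice, and H2-K1 was 0.95 ± 0.20 higher there. In each of these 3 comparisons every Combo mouse lay on 1 side of every SX682 mouse.

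NK cell-like cells of cluster 6 expressed all 7 NK markers used, Ncr1, Klrb1c, Eomes, Klra8, Klra4, Prf1 and Gzma. In cluster 6, 138 genes were higher and 52 lower, 4.77% of 3982, and 124 were called without Combo mouse 2. A call relative to the other clusters was made for 48 genes, 1.21%. Pim2, a kinase of cell survival, had 161, 205 and 118 CPM in Combo mice, against 66.8, 48.1 and 56.3 CPM in SX682 mice, a log2 difference of 1.58 ± 0.25 (edgeR adjusted p = 5.47e-05). Irf8, a transcription factor of NK and myeloid cells, had 811, 772 and 408 CPM in Combo mice, against 390, 385 and 315 CPM in SX682 mice, a difference of 0.90 ± 0.19. Neither gene overlapped, though Combo mouse 3 lay near the SX682 mice for Irf8.

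Cx3cr1, the fractalkine receptor of mature NK cells, had 205, 105 and 70.6 CPM in cluster 6 of Combo mice, against 18.6, 62.7 and 18.8 CPM in SX682 mice, a log2 difference of 1.77 ± 0.35, and lost its call without Combo mouse 1 (adjusted p = 0.0996). Ms4a4b, a membrane protein of T and NK cells, was lower at 1021, 968 and 1114 CPM in Combo mice, against 1262, 1460 and 1610 CPM in SX682 mice, and lost its call without Combo mouse 2 (0.0647) or SX682 mouse 3 (0.0526). Of 14 tested cytotoxic effector genes Cx3cr1 was higher and Cst7 and Klrk1 lower, and of 15 NK receptor genes 3 were lower (Klra8, Klra9 and Klrk1). Immediate early genes were higher in 4 of 14 in NK cell-like cells (Junb, Egr1, Nr4a3 and Dusp1), in contrast to cluster 25. The neutrophil marker sum in cluster 6 was 1947 to 3823 CPM in Combo mice, against 108 to 779 CPM in SX682 mice, with 4 of 6 tested markers called higher. Its part in the NK cell results was not tested.

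Among T cells, the 8 states of the T cell table that could be fitted summed to 462 called genes, 2.81% of 16434 tests, and to 277 without Combo mouse 2. State 3, led by Ly6c2, Klra7 and Cd7, had 111 genes higher and 67 lower, 5.07% of 3512, and 28 relative to the other clusters, 0.797%. Its count was 99 without Combo mouse 2, 108 without Combo mouse 3 and 101 without SX682 mouse 3. Gzmb, the granzyme that triggers death of target cells, had 77.5, 268 and 224 CPM in state 3 of Combo mice, against 40.4, 36.6 and 69.5 CPM in SX682 mice, a log2 difference of 1.73 ± 0.32 (edgeR adjusted p = 0.000155). Combo mouse 1 lay just above the highest SX682 mouse, and the other 2 Combo mice far above. Tnfaip3, the NF-kB inhibitor A20, had 137, 108 and 110 CPM in Combo mice, against 80.7, 36.6 and 33.2 CPM in SX682 mice, a difference of 1.48 ± 0.28 that remained called relative to the other clusters.

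Neutrophil markers summed to 166 to 415 CPM in state 3 of Combo mice, against 30 to 102 CPM in SX682 mice, with S100a8 and S100a9 called higher, and their part was not tested. The protease gene Ctsw fell in T cell state 3 by 0.69 on the log2 scale, a call lost without SX682 mouse 3 (adjusted p = 0.151). Over all T cells Cd3g, a chain of the T cell receptor complex, had 611, 518 and 620 CPM in Combo mice, against 873, 767 and 985 CPM in SX682 mice, a difference of -0.59 ± 0.11. In T cell-like cluster 8 of the whole table, rich in Cxcr6 and in regulatory T cell genes, 81 genes were higher and 34 lower, 3.56% of 3230, and 72 without Combo mouse 1. Relative to the other clusters edgeR called 0 of its genes, with 226 of the 3230 at an unadjusted p under 0.05; DESeq2 was not run on that reading. Ccr8, a receptor of tumour regulatory T cells, had 17.8, 16.2 and 0 CPM there in Combo mice, against 88.6, 45.0 and 77.5 CPM in SX682 mice, and Cx3cr1 had 104, 60.6 and 135 CPM, against 29.5, 22.5 and 38.0 CPM. The groups were apart for both, and both calls were lost without Combo mouse 1 (adjusted p 0.0628 for Ccr8 and 0.0969 for Cx3cr1), that of Ccr8 also without SX682 mouse 3 (0.11). Cluster 8 had 98 to 282 cells per Combo mouse and 69 to 252 per SX682 mouse. In the authors' T cell states the 1391 cells of cluster 8 that have one, over all 12 mice, were 384 of state 6, 304 of state 2, 262 of state 9, 255 of state 4, 120 of state 3 and fewer of the others. State 2, with 304 of its 373 cells in cluster 8, has Cx3cr1 among its leading genes, and its share of T cells was higher in Combo mice (given below), so a change of mixture and a change per cell cannot be told apart.

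B cell-like cells of cluster 1 had 114 genes higher and 55 lower, 2.9% of 5826. MHC class II genes were lower in 5 of 10. Cd74, the invariant chain, had 12701, 13090 and 12351 CPM in Combo mice, against 22056, 21031 and 18740 CPM in SX682 mice, a log2 difference of -0.70 ± 0.07 (edgeR adjusted p = 1.13e-06), and remained called relative to the other clusters at -0.30. The groups lay far apart beside their narrow spread. Tnfrsf13c, the receptor for the survival factor BAFF, had a difference of -0.997 ± 0.21 and Cd72, a coreceptor of the B cell receptor, -0.92 ± 0.19. Their calls were lost without Combo mouse 1 for Tnfrsf13c (adjusted p = 0.0525) and without SX682 mouse 1 for Cd72 (0.0501). The B cell marker sum was 4323 to 5089 CPM in Combo mice, against 6487 to 7812 CPM in SX682 mice, and the T cell marker sum 628 to 940 CPM, against 192 to 660 CPM, with Cd3d, Trbc2 and Lat called higher.

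Tumour epithelial keratins marked clusters 21 and 23: cluster 21, led by Lypd8, had 5 of 6 tumour epithelial markers (Epcam, Krt8, Krt18, Krt19 and Krt7) and cluster 23, with Cdkn2a and Hmga2 among its leading genes, had 3 (Krt8, Krt18 and Krt19). In cluster 21, 202 genes were higher and 112 lower, 3.43% of 9161, with 63 called relative to the other clusters, 0.688%. In cluster 23, 257 were higher and 188 lower, 4.48% of 9936, with 71 relative to the other clusters, 0.715%. The count of cluster 21 was 167 without Combo mouse 2, 100 without Combo mouse 3, 199 without SX682 mouse 1 and 155 without SX682 mouse 3. That of cluster 23 was 260 without Combo mouse 1, 288 without Combo mouse 2, 283 without Combo mouse 3, 267 without SX682 mouse 1 and 291 when the 6 mice were fitted alone.

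Cxcl5, the CXCR2 ligand made by epithelial cells, rose in both. In cluster 21 Cxcl5 had 206, 216 and 319 CPM in Combo mice, against 56.6, 99.8 and 35.3 CPM in SX682 mice, a log2 difference of 1.90 ± 0.28 (edgeR adjusted p = 0.00141). In cluster 23 it had 301, 467 and 452 CPM in Combo mice, against 145, 163 and 67.6 CPM in SX682 mice, a difference of 1.65 ± 0.26 (edgeR adjusted p = 0.00106). All Combo mice were above all SX682 mice in both clusters, and the call held without each mouse in turn. Cxcl1 was not called in either, at 0.92 ± 0.38 in cluster 21 and 0.80 ± 0.32 in cluster 23. Cxcl2 in cluster 21 was 0.97 ± 0.23 higher, a call lost without any mouse but SX682 mouse 2 (adjusted p 0.0552 to 0.0937) and not made relative to the other clusters.

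Ankrd1, a target of the YAP pathway, had 130, 100 and 103 CPM in cluster 21 of Combo mice, against 43.8, 41.8 and 35.3 CPM in SX682 mice, a log2 difference of 1.43 ± 0.17. The 3 SX682 mice lay within a narrow band well under the Combo mice. Slfn1, a growth regulator known from lymphocytes, was 1.81 ± 0.19 higher there, at 6.6% of its highest cluster. The keratin Krt7 fell to 4.34, 17 and 2.64 CPM in Combo mice, against 29.8, 107 and 32.4 CPM in SX682 mice, at -2.80 ± 0.56, and lost its call without Combo mouse 3 (adjusted p = 0.0789).

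Igfbp3, a secreted binder of insulin-like growth factors, fell in both tumour-like clusters. It had 42.8, 82.3 and 65.9 CPM in cluster 23 of Combo mice, against 166, 132 and 192 CPM in SX682 mice, a log2 difference of -1.31 ± 0.18 (edgeR adjusted p = 0.000296), and Msln, the surface protein mesothelin, was -0.97 ± 0.13 in the same cells. Neither gene overlapped between groups in cluster 23. In cluster 21 Igfbp3 was -1.34 ± 0.29 and lost its call without Combo mouse 1, Combo mouse 3 or SX682 mouse 3 (adjusted p 0.065 to 0.108). Glycolysis and hypoxia genes were lower in 12 of 23 in each tumour-like cluster and higher in none, with list medians of -1.10 in cluster 21 and -0.72 in cluster 23, against -0.01 over all genes in both. Pgk1, a glycolytic kinase, had 401, 287 and 208 CPM in cluster 21 of Combo mice, against 596, 821 and 1102 CPM in SX682 mice. Ldha, which makes lactate, was -1.24 ± 0.23 there and lost its call without Combo mouse 3 (0.0556). In cluster 21 none of the 23 remained relative to the other clusters and 3 remained in cluster 23 (Pgam1, Pkm and Slc16a3). In cluster 21 the neutrophil marker sum was 8849 to 12554 CPM in Combo mice, against 2886 to 7044 CPM in SX682 mice, with 2 of 8 called. In cluster 23 it was 1433 to 2297 CPM, against 167 to 1566 CPM, with 0 of 8 called. Tumour epithelial markers summed to 7179 to 7287 CPM in cluster 21 of Combo mice, against 10024 to 11365 CPM in SX682 mice.

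Endothelial-like cells of cluster 10 expressed all 7 endothelial markers used and were tested with 3 Combo mice (65 to 188 cells) and 2 SX682 mice (285 and 48 cells), since SX682 mouse 3 had 4. SHP099 mice 2 and 3 also had too few cells there. In cluster 10, 41 genes were higher and 20 lower, 1.54% of 3966, and 33 were called relative to the other clusters, 0.832%. The count was 37 without Combo mouse 1, 29 without Combo mouse 2, 7 without SX682 mouse 1 and 98 without SX682 mouse 2. The interferon gamma response list was higher in 6 of 19 (Gbp4, Gbp7, Igtp, Iigp1, Irgm2 and Cxcl10) and lower in none, with a list median of 1.48. Igtp, an immunity-related GTPase, had 351, 419 and 184 CPM in Combo mice, against 37.1 and 129 CPM in SX682 mice, a log2 difference of 2.48 ± 0.40 (edgeR adjusted p = 0.00149). Cxcl10, a chemokine for T and NK cells, had 89.6, 146 and 23 CPM in Combo mice, against 5.57 and 0 CPM in SX682 mice. All Combo mice were above both SX682 mice for these 2 genes and for Irgm2 and Gbp7. Without SX682 mouse 1 the call was lost for Igtp (adjusted p = 0.353), Cxcl10 (0.353), Irgm2 (0.945) and Gbp7 (0.88), leaving 1 SX682 mouse that is assumed to vary like the other groups. Without Combo mouse 1 the calls of Cxcl10 (0.183) and Irgm2 (0.0793) were lost, and without Combo mouse 2 those of Irgm2 (0.16) and Gbp7 (0.292).

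The promoters of these 4 interferon response genes are printed because the genes rose together in endothelial-like cells. They were chosen after their values had been seen, and they come from the RefSeq promoters of GRCm38.p6, written 5′ to 3′ on the strand of the gene. Capitals mark matches on either strand to GAAANNGAA, the core of the element that interferon-activated factors bind, to TTCNNNGAA, the STAT motif, to GGAANTCC, the NF-kB core, and to TGANTCA, the AP-1 motif. Among the 27025 promoters of the same length 8.57% hold the first, 8.47% the second, 4.84% the third and 7.93% the fourth. Igtp at chr11:58199306-58199605 on the plus strand and Irgm2 at chr11:58214727-58215026 on the plus strand hold 1 interferon core and 1 STAT match each. The annotated span of Irgm2 overlaps that of Igtp on the same strand of the genome, so reads of the 2 genes may be hard to tell apart. Gbp7 at chr3:142530086-142530385 on the plus strand holds 1 interferon core and 2 STAT matches. Cxcl10 at chr5:92348840-92349139 on the minus strand holds 1 interferon core, 1 NF-kB core and 1 AP-1 match. A match is a string of letters in a window and not a site shown to be bound.
Igtp: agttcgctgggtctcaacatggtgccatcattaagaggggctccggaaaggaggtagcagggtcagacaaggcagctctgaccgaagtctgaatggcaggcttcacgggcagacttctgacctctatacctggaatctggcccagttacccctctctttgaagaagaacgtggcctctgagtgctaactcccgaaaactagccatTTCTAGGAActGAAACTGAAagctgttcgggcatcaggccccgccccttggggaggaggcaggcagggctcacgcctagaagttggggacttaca
Irgm2: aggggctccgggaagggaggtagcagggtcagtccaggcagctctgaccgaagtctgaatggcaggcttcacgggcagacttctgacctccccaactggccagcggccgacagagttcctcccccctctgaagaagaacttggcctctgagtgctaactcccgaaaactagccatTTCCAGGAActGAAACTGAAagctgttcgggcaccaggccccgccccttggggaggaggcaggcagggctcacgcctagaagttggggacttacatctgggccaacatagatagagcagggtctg
Gbp7: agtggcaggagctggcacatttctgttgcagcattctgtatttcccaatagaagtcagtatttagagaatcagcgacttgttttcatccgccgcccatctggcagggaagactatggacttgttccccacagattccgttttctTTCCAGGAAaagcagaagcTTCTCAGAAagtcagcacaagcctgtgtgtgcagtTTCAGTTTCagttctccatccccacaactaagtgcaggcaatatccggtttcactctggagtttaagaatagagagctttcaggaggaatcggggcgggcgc
Cxcl10: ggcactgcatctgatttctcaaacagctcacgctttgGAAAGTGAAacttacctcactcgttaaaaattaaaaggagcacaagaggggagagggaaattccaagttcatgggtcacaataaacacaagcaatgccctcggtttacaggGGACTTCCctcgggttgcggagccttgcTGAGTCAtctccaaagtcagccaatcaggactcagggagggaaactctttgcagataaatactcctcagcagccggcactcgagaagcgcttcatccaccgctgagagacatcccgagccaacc

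Cyp1a1, the enzyme induced by the aryl hydrocarbon receptor, had 1001, 731 and 241 CPM in endothelial-like cells of Combo mice, against 18.6 and 89.1 CPM in SX682 mice, a log2 difference of 4.33 ± 0.53 (edgeR adjusted p = 2.1e-05). Its level was 1170 CPM in the 1 SHP099 mouse with enough cells and 0 CPM in all 3 Vehicle mice. Apln, a peptide of sprouting vessels, was 1.95 ± 0.35 higher, and Lpl, the lipase that endothelium carries on its surface, had 89.6, 87.8 and 80.5 CPM in Combo mice, against 620 and 158 CPM in SX682 mice. Dusp6 fell to 66.2, 68.3 and 80.5 CPM in Combo mice, against 219 and 168 CPM in SX682 mice, a difference of -1.53 ± 0.32. For these 3 genes the call was lost without SX682 mouse 1 (adjusted p 0.305 for Apln, 0.832 for Lpl and 0.579 for Dusp6), and that of Dusp6 also without Combo mouse 1 (0.091). NK markers summed to 91 to 238 CPM in the endothelial-like cells of Combo mice, against 0 to 9 CPM in SX682 mice, with Gzma called higher and Eomes at 0. Alveolar type 1 markers summed to 1261 to 2189 CPM in Combo mice, against 631 to 720 CPM in SX682 mice, with Ager and Hopx called higher. The part of these cells in the results was not tested.

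Fibroblast-like cells of cluster 20 were the scarcest of those described, with 20 to 38 cells per Combo mouse and 54 and 46 in SX682 mice 1 and 2. In cluster 20, 313 genes were higher and 301 lower, 8.04% of 7634, and 409 were called relative to the other clusters, 5.36%. The count was 249 without Combo mouse 2, 272 without Combo mouse 3, 202 without SX682 mouse 1, 107 without SX682 mouse 2 and 357 with the 2 groups fitted alone, where SHP099 had no mouse with enough cells. Cthrc1, a secreted protein of activated fibroblasts, had 11.6, 26 and 0 CPM in Combo mice, against 238 and 206 CPM in SX682 mice, a log2 difference of -3.93 ± 0.46 (edgeR adjusted p = 0.00172). The lymphoid tissue chemokine gene Ccl21a had 497, 228 and 659 CPM in Combo mice, against 0 and 10.3 CPM in SX682 mice. Cxcl1 had 75.1, 84.5 and 0 CPM in Combo mice, against 441 and 306 CPM in SX682 mice, the only cluster of 9 in which Cxcl1 was called, and the call was lost without Combo mouse 2 (adjusted p = 0.0508) or SX682 mouse 1 (0.0657). No Combo mouse overlapped an SX682 mouse for these 3 genes.

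Other lists moved widely in cluster 20. Immediate early genes were lower in 9 of 19, cell cycle genes in 8 of 20 and glycolysis genes in 11 of 23, while mitochondrially encoded genes were higher in 11 of 13 and MHC class II genes in 5 of 6. Markers of other cells moved with them: the lymphatic endothelial sum was 547 to 1181 CPM in Combo mice, against 182 to 245 CPM in SX682 mice, the NK sum 270 to 482 CPM, against 2 to 29 CPM, and the tumour epithelial sum 254 to 443 CPM, against 1426 to 2053 CPM. With so few cells, a different mixture of cells in the cluster and a change within fibroblasts cannot be told apart.

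Shares of cells were read only where none of the 10 leading genes of a cluster had changed, and 2 such shares were called. Shares of clusters 16, 19 and 32 among all cells and of 32 and 33 among neutrophils were called too and are not read here: in 19, 32 and 33 leading genes had changed, in 32 those that set it apart from other neutrophils, and cluster 16 had too few cells for a fit of its genes. The same holds for the interactions called for the shares of clusters 20, 21 and 23. Log2 differences of the unread shares among all cells were -3.10 in cluster 16, -2.05 in 19 and 1.96 in 32 (edgeR adjusted p 0.0032, 0.0032 and 0.00461). Among neutrophils they were 1.05 in cluster 32 and -1.40 in 33 (0.0475 and 0.0358). The unread interactions were 2.48 in cluster 20, 3.96 in 21 and 2.43 in 23 (0.0495, 0.000214 and 0.0261). Conventional dendritic cell-like cells of cluster 18 made up 1.06%, 0.646% and 0.784% of the cells of the Combo mice, against 2.03%, 1.77% and 4.76% of those of the SX682 mice, a log2 difference of -1.77 ± 0.55 (edgeR adjusted p = 0.0443). SX682 mouse 3 was highest, and the call was lost without it (adjusted p = 0.143) and without Combo mouse 1 (0.0751), Combo mouse 2 (0.162) or Combo mouse 3 (0.112), as well as with the 6 mice fitted alone (0.0692). T cell state 2, high in Klrg1 and Gzma, made up 17.8%, 5.79% and 10.3% of T cells in the Combo mice, against 2.57%, 4.21% and 1.89% in the SX682 mice, a difference of 2.01 ± 0.47 (edgeR adjusted p = 0.00581), and fell short of the threshold without SX682 mouse 3 (0.0512). The groups did not overlap for either share, and the exact permutation test of 3 against 3 mice gave its smallest possible p of 0.1, two-sided, for both.

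The Combo over SX682 difference minus the SHP099 over Vehicle difference was tested as an interaction in the 27 clusters with enough mice in all 4 groups. With each group 1 capture, drug and capture cannot be told apart in the interaction. The interaction was called in 571 of 113250 tests, 0.504%, with 420 above and 151 below 0. The count was 331 without Combo mouse 2, 346 without Combo mouse 3 and 353 without SX682 mouse 2. Of 76 gene and cluster pairs that are described with values, were called in Combo over SX682 and had an interaction test, it was called in 3, and in 14 of the other 73 the 2 differences were 1 or more apart on the log2 scale. The widest of these was Cd209a in cluster 12, at -3.40 in Combo over SX682 and -0.21 in SHP099 over Vehicle (edgeR adjusted p = 0.451). Closer pairs were also found: Fabp4 in alveolar macrophage-like cells had 1.48 in Combo over SX682 and 1.53 in SHP099 over Vehicle, Spp1 in cluster 25 had 1.43 and 1.53, Cxcr4 in neutrophils 0.86 and 0.99, Retnlg in neutrophils -1.35 and -1.66, and Cxcl5 in tumour-like cluster 23 had 1.65 and 1.83. A missing call does not show that these differences are equal.

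The interaction was called for Cxcr1 in alveolar macrophage-like cells, which averaged 129 CPM in Combo, 20.4 in SX682, 123 in SHP099 and 49.4 in Vehicle mice. Its difference was 2.56 in Combo over SX682 and 1.24 in SHP099 over Vehicle, an interaction of 1.32 (edgeR adjusted p = 0.0375). In all neutrophils 132 interactions were called, 1.77% of 7477, among them Cxcl1. Neutrophil Cxcl1 averaged 48.5 ± 6.09 CPM in Combo and 30.7 ± 23.8 CPM in SX682 mice (SD, n = 3 each), with overlapping levels, and 30.8 CPM in SHP099 and 116 CPM in Vehicle mice. For Cxcl5 in tumour-like cluster 21, at 1.90 in Combo over SX682 and 0.34 in SHP099 over Vehicle, the interaction of 1.57 was not called (edgeR adjusted p = 0.27).

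**Figure D5:**
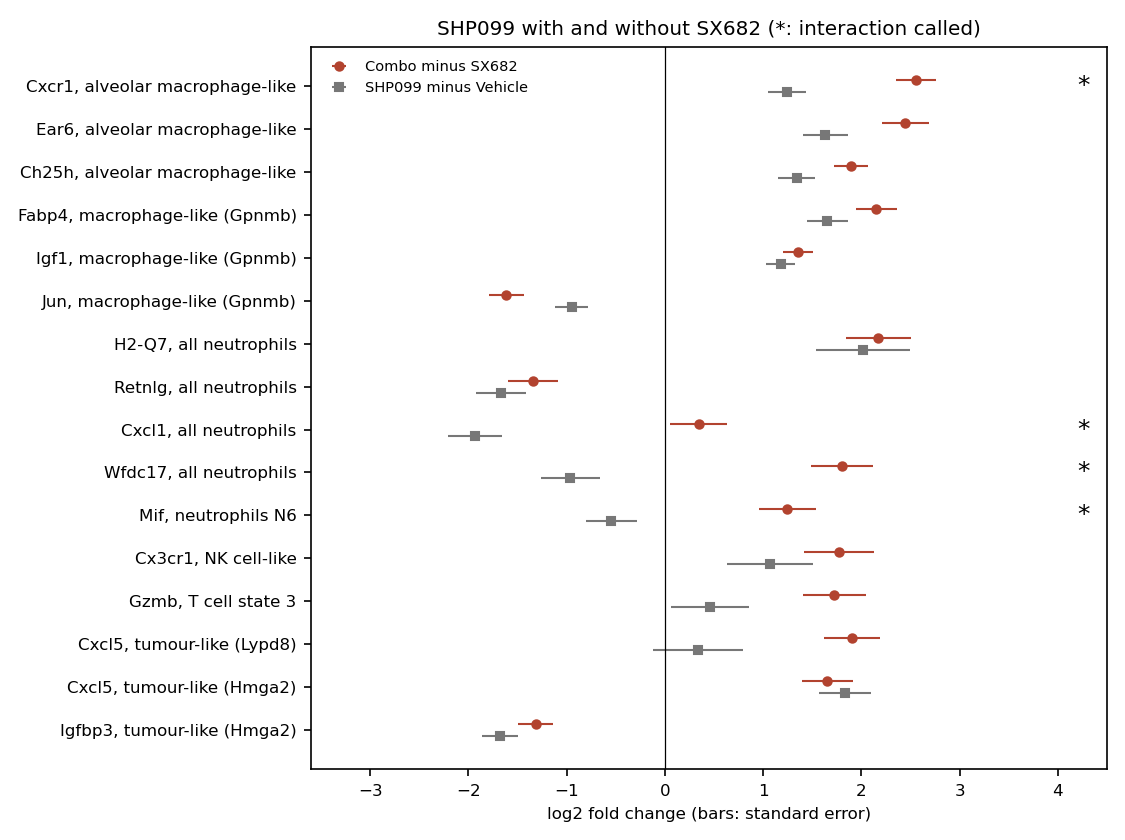
Log2 difference ± SE of named genes for Combo over SX682 (red circles) and SHP099 over Vehicle (grey squares), with an asterisk where the interaction was called. Igf1 in cluster 25 has 1.35 and 1.18, while Cxcr1 in alveolar macrophage-like cells has 2.56 and 1.24.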

How the data were processed

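Counts were the authors' deposited raw UMI counts per gene and cell. The authors' other deposited columns used here are cluster numbers and hashtag conditions. Per the submitters' processing notes, bcl2fastq, Cell Ranger and R 3.3.0 were named with mm10; the labels name no settings. The lowest UMI total of a cell in the files was 500 and the highest mitochondrial share 20%. Doublet treatment is not given, and no caller was run. UMIs were summed per mouse and cluster (10 or more cells). edgeR 4.0.16 in R 4.3.3 (TMM, filterByExpr, quasi-likelihood test, all 4 treatments in 1 fit) gave each contrast, with Benjamini-Hochberg adjustment within a cluster. Shares of cells were tested the same way on cell numbers. The fit was checked on simulated counts of some clusters with all 12 mice and no capture effect. That check does not cover capture, or clusters fitted with fewer mice such as the endothelial-like and fibroblast-like cells. Correlations showed no pairing of mice across groups by replicate number. Clusters 11, 16 and 22 and T cell state 7 had too few cells to be fitted, and bulk libraries of the series were not used. Members and lists were chosen with earlier results of these data known. Named genes were, per cluster, up to 5 called genes in each direction by fold with average log2 CPM of at least 5, no overlap of groups, at least 5% of the highest cluster CPM and not among the 10 leading genes of the cluster, up to 4 called members per list, and fixed SHP2 and CXCR1/2 genes; the text uses part of them. Alternatives tried were DESeq2 1.42.0, its size factors in edgeR, other filters, 50 cells drawn per mouse, the 6 mice alone, a replicate block, each mouse left out, and changes relative to the other clusters.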

Additional observations from a re-analysis of the deposited data

Results flagged for a closer look

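In the 5 results listed here the Combo over SX682 difference and the SHP099 over Vehicle difference differed by the interaction test of edgeR. Each group is 1 capture, so drug and capture cannot be told apart in them. The Benjamini-Hochberg adjustment ran over the genes of the cluster, or over the T cell states for the share. Cxcr1 in alveolar macrophage-like cells had an interaction of 1.32, with log2 differences of 2.56 in Combo over SX682 and 1.24 in SHP099 over Vehicle (adjusted p = 0.0375).

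Cxcl1 in all neutrophils had an interaction of 2.27, with 0.34 in Combo over SX682 and -1.93 in SHP099 over Vehicle (adjusted p = 0.00313). Wfdc17, a small secreted protein of myeloid cells, had 2.76 in all neutrophils, with 1.80 in Combo over SX682 and -0.96 in SHP099 over Vehicle (adjusted p = 0.00119). It had 991, 1977 and 2705 CPM in Combo mice, against 517, 518 and 610 CPM in SX682 mice, and its difference relative to the other clusters was 0.06. In T cell state 4 Wfdc17 also had a called interaction, 5.34 (edgeR adjusted p = 3.07e-05), at 0.77% of its highest cluster and so under the free RNA rule. In monocyte-like cluster 12 its interaction of 0.79 was not called.

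Mif, a cytokine and tautomerase, had an interaction of 1.79 in neutrophil state 6, with 1.25 in Combo over SX682 and -0.55 in SHP099 over Vehicle (adjusted p = 0.0103). Its Combo over SX682 call was lost without Combo mouse 3 (adjusted p = 0.126) or SX682 mouse 1 (0.216). The share of T cell state 2 had an interaction of 2.5, with 2.01 in Combo over SX682 and -0.49 in SHP099 over Vehicle (adjusted p = 0.0215), and it stood at 3.94%, 1.86% and 2.97% of T cells in SHP099 mice, against 3.16%, 6.25% and 2.97% in Vehicle mice.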

How the results depend on the processing

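Over the main clusters the 5140 calls became 7965 with all genes of 1 count or more, 1154 with 50 cells drawn per mouse (10 clusters, where the full data gave 3201) and 1528 relative to the other clusters, and ranged from 2743 to 4082 without 1 mouse. DESeq2 gave 4725 and the 6 mice alone 4589. The 403 calls over neutrophil states became 91 relative to the other clusters (22 higher, 69 lower, from 306 higher and 97 lower) and 207 to 324 without 1 mouse; no state had enough cells for the draw. The 462 calls over T cell states became 83 with 50 cells drawn (2 states, 255 there in the full data), 72 relative to the other clusters (26 higher, 46 lower, from 327 higher and 135 lower) and 277 to 365 without 1 mouse. The 571 interactions became 890 with DESeq2 and 331 to 626 without 1 mouse. Shares were called in 4 main clusters (3 to 9 without 1 mouse), in 2 neutrophil states (0 with the 6 mice alone, 0 to 2 without 1 mouse) and in 1 T cell state (2 with the 6 mice alone, 0 to 2 without 1 mouse).

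The replicate block gave 5090 calls over main clusters, 540 over T cell states, 647 interactions and shares called in 9 main clusters, 0 neutrophil states and 2 T cell states. Same-numbered mice correlated at -0.027, -0.014 and -0.032 and others at -0.015 to 0.032. These values showed no pairing by number, though so few correlations cannot exclude one. Of 88 called gene and cluster pairs named with values, 1 lost its call under the block (Dusp6 in fibroblast-like cells, adjusted p = 0.0559), 40 kept it under every alternative other than the relative reading, and 37 of the 49 with a median over other clusters kept it relative to that median. The cause of these shifts was not tested. Mice with fewer than 10 cells in a cluster gave no value there.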
